A study of Homo sapiens with 6 samples.

Results

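The 9 genes HLA-B, HLA-C, HLA-E, B2M, TAP1, TAP2, TAPBP, NLRC5 and PSMB9, taken by symbol from the 23686 genes of the deposited tables, were described across 2 human non-small cell lung cancer lines. All 9 were among the 14481 genes with enough reads to be tested. A427 and HCC15 cells were transfected with a control siRNA (Tax), with LGR6 siRNA 2 or with LGR6 siRNA 4, and RNA was collected after 48 h from cultures in medium with 5% fetal bovine serum. Each line and siRNA gave 1 library, 6 in all, so that each siRNA was seen once in each line. Nothing in the labels says whether the libraries came from separate transfections or days, and p-values measure only the spread between these libraries. LGR6, a receptor for R-spondins that potentiates Wnt signalling, was the gene silenced.

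HLA class I molecules present peptides from inside the cell to CD8+ T cells. HLA-B and HLA-C encode classical heavy chains, HLA-E a nonclassical heavy chain read by natural killer cells, and B2M the light chain they all need to reach the surface. Peptides are cut by the proteasome, of which PSMB9 is an interferon-inducible subunit, carried into the endoplasmic reticulum by the TAP1 and TAP2 transporter, and loaded with the help of tapasin, the product of TAPBP. NLRC5 is a transactivator that acts at class I promoters together with RFX, CREB/ATF and NF-Y factors, and interferons raise most of these genes.

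Promoter sequences were taken from RefSeq on GRCh38.p14, which held entries for 7 of the 9 genes (not HLA-E or NLRC5); the reads had been counted on hg19. The 250 bases before the annotated start are shown for HLA-B and HLA-C and for 4 genes that differed between the lines, B2M, TAP1, PSMB9 and TAPBP. Both strands were searched for 2 copies of GAAA set 2 bases apart, the core of an interferon response element, which 3.02% of 35116 promoter windows held, for CCAAT (32.0%), the NF-Y motif, for TGACG (21.2%), found in CREB/ATF sites, and for the full site TGACGTCA (1.65%), which contains TGACG. Matches are in capitals and describe only these letters, not binding.
HLA-B, chr6:31357180-31357429, minus strand: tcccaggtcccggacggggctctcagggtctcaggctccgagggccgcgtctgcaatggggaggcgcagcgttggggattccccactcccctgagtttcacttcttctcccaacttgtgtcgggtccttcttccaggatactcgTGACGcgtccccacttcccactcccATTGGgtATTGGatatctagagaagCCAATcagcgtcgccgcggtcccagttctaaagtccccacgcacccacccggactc
HLA-C, chr6:31272093-31272342, minus strand: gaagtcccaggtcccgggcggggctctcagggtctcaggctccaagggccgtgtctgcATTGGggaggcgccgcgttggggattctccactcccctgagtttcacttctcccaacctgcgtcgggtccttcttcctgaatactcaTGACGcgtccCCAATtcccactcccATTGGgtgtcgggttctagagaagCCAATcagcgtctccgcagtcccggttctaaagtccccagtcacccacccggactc
B2M, chr15:44711267-44711516, plus strand: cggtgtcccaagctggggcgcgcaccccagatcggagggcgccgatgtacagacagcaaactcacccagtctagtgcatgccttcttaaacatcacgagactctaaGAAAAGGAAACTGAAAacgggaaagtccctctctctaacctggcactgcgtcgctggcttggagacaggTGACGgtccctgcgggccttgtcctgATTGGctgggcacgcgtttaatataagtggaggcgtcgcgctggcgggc
TAP1, chr6:32853705-32853954, minus strand: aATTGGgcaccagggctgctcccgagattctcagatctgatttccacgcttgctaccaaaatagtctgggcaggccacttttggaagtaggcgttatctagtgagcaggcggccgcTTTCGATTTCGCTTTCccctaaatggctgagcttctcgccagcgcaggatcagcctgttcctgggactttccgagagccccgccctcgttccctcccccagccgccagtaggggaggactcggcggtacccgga
PSMB9, chr6:32853942-32854191, plus strand: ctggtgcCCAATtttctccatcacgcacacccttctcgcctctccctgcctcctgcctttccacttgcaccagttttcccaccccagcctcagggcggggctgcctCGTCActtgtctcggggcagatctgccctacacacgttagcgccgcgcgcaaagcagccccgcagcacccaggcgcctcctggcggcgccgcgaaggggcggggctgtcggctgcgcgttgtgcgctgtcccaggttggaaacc
TAPBP, chr6:33314079-33314328, minus strand: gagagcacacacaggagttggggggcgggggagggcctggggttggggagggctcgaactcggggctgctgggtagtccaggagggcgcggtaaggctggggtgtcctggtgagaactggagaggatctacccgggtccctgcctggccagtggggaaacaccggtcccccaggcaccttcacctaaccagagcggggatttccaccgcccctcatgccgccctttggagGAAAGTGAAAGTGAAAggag
HLA-B and HLA-C each held 1 TGACG, 106 and 105 bases before the start, and a CCAAT 56 bases before it. B2M, TAP1 and TAPBP each held a pair of overlapping matches to the interferon response core, and TAP2, not printed, held 1. The full TGACGTCA was in none of the 7. TAP1 and PSMB9 lie head to head on opposite strands with starts 488 bases apart, and their windows overlap by 13 bases. TAP1 has a second annotated start 1431 bases from that of PSMB9, whose window, not printed, held none of these letters.

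Libraries held 25546419 to 28987901 reads. LGR6 had 257 reads in the HCC15 control library, 39 with siRNA 2 and 77 with siRNA 4, which were 14.0% and 30.7% of the control after scaling. In A427 the control library had 5 LGR6 reads and both LGR6 siRNA libraries had 0, so silencing was not measurable there at this depth. The epithelial genes EPCAM, KRT8 and KRT18 were present in every library, at 27.6 to 4072 TPM (the length-scaled level the authors deposited). The other 3 of 6 epithelial markers were low in A427, KRT7 (0 to 0.20 TPM) and KRT19 (0.18 to 0.38) near 0 and CDH1 at 3.11 to 3.52, and were at 5.64 to 1478 TPM in HCC15. Of 9 leukocyte markers, 4 were at 0 in all libraries (CD3E, MS4A1, LYZ and FCGR3A). The summed level of all 9 was 25.9 to 32.7 TPM in A427, mostly CD68, and 5.11 to 6.67 TPM in HCC15, and PTPRC was at 1.22 to 1.58 TPM in A427 and 0 in HCC15; their part in the differences between lines was not tested.

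On the TPM scale, which allows levels of different genes to be compared, B2M was the highest member in every library and NLRC5 the lowest. In A427, B2M ranged from 437 to 582 TPM over the 3 libraries, followed by TAPBP (152 to 206), HLA-C (85.7 to 110), HLA-B (68.3 to 101), PSMB9 (71.8 to 78.9), TAP1 (56.1 to 63.4), HLA-E (46.0 to 59.9), TAP2 (39.9 to 42.7) and NLRC5 (0.47 to 0.79). The ranges of HLA-C and HLA-B, of HLA-B and PSMB9, and of TAP1 and HLA-E overlapped, and the other neighbours in this order did not. In HCC15, B2M ranged from 1262 to 1486 TPM, followed by HLA-B (65.1 to 89.8), HLA-C (58.5 to 73.1), TAPBP (41.8 to 63.0), TAP1 (29.3 to 44.5), TAP2 (33.9 to 39.9), HLA-E (28.4 to 35.2), PSMB9 (7.35 to 11.2) and NLRC5 (1.08 to 2.73). There the 6 genes from HLA-B to HLA-E each overlapped the next, whereas B2M, PSMB9 and NLRC5 stood apart from their neighbours. PSMB9 thus lay among the heavy chains in A427 and well below them in HCC15.

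**Figure D1:**
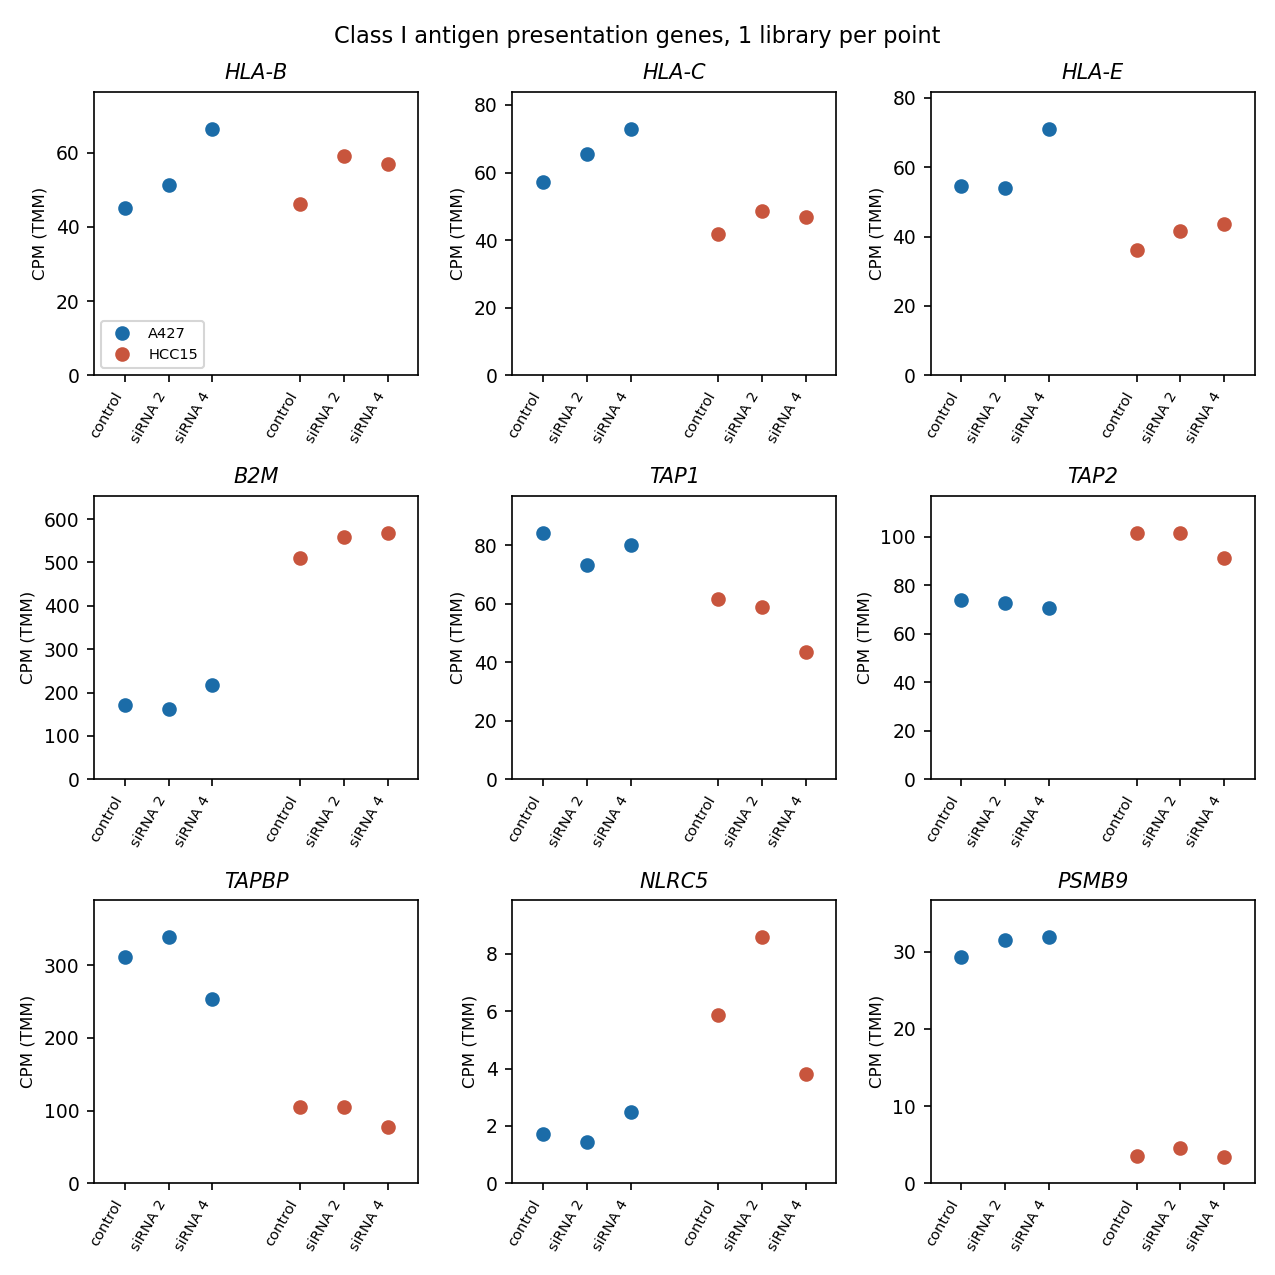
Level of each of the 9 genes in CPM on the TMM scale (vertical axes start at 0), 1 point per library, with A427 in blue and HCC15 in red and the siRNAs along the horizontal axes. PSMB9 and TAPBP are lower in all 3 HCC15 libraries than in any A427 library, B2M and NLRC5 are higher in all 3, and the HLA-B points of the lines overlap.

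By counts, 8 of the 9 genes passed the test between HCC15 and A427, some higher and some lower in HCC15. PSMB9, TAPBP, HLA-E, TAP1 and HLA-C were lower in HCC15, by 8.13-fold for PSMB9 and 3.14-fold for TAPBP, and B2M, NLRC5 and, by counts but not by TPM, TAP2 were higher, by 2.99-fold for B2M. HLA-B did not pass the test. The 3 of 9 genes higher and 5 of 9 lower stand beside 37.2% of all tested genes higher and 39.3% lower in HCC15, so most genes differed between these lines. The median log2 difference was -0.51 for the 9 genes and -0.03 for all tested genes. In cultures measured in bulk, fewer cells expressing a gene and less RNA per cell cannot be told apart.

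Among the heavy chains, HLA-B had 45.2, 51.2 and 66.3 CPM (reads scaled to library size by TMM) in the A427 control, siRNA 2 and siRNA 4 libraries and 46.1, 59.1 and 56.9 in the HCC15 libraries in the same order. The lines overlapped, and the fitted log2 difference was 0.00 ± 0.12 (SE; edgeR quasi-likelihood test, Benjamini-Hochberg adjusted p = 0.977). Its sign depended on the arm, with a log2 ratio of HCC15 to A427 of 0.03 with control siRNA, 0.21 with siRNA 2 and -0.22 with siRNA 4. HLA-C had 57.2, 65.4 and 72.9 CPM in A427 and 41.9, 48.7 and 46.7 in HCC15. Every HCC15 library was below every A427 library for HLA-C, with a log2 difference of -0.51 ± 0.10 (edgeR adjusted p = 0.00197). HLA-E had 54.6, 53.9 and 71.1 CPM in A427 and 36.2, 41.7 and 43.7 in HCC15, again without overlap (log2 -0.56 ± 0.11, edgeR adjusted p = 0.00169). These genes resemble each other in sequence: 2.54% of the 50-base words of the longest HLA-B transcript occur in transcripts of other genes, 6.71% for HLA-C and 5.13% for HLA-E. Their expected counts were not whole in all 6 libraries, as the quantifier divides shared reads, whereas those of the other 6 genes were whole. The HLA alleles of the lines were not analysed, and their part in differences of HLA gene counts between the lines was not tested.

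The light chain went the other way from HLA-C and HLA-E. B2M had 172, 162 and 218.5 CPM in A427 and 510.0, 558 and 568 in HCC15, so that the lowest HCC15 library was above the highest of A427 (log2 1.58 ± 0.11, edgeR adjusted p = 2.68e-06). None of the 50-base words of B2M occur in another gene's transcripts.

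For peptide transport, TAP1 had 84.3, 73.1 and 80.3 CPM in A427 and 61.5, 59.0 and 43.7 in HCC15. Its levels did not overlap between lines (log2 -0.55 ± 0.13, edgeR adjusted p = 0.0041), and the ratio within an arm was lowest with siRNA 4 (-0.88, against -0.45 with control siRNA and -0.31 with siRNA 2). TAP2, its partner subunit, had 74.0, 72.6 and 70.5 CPM in A427 and 102, 102 and 91.4 in HCC15 and passed the test as higher (log2 0.44 ± 0.09, edgeR adjusted p = 0.00264). TAP2 TPM did not show this difference: they were 39.9, 42.2 and 42.7 in A427 and 38.9, 39.9 and 33.9 in HCC15, and a limma fit of log2(TPM + 1) gave -0.15 (limma adjusted p = 0.269). Reads per TPM, which follow the transcript length that RSEM used, were 1.26 to 1.41 times the library median in A427 and 1.84 to 1.95 times in HCC15, a shift at percentile 99.9 of 11031 genes. The direction of TAP2 between the lines is uncertain, since counts and TPM disagreed on it. In the transcript annotation at hand, 35.8% of TAP2's 50-base words are shared with the overlapping gene AL669918.1. TAP2's expected counts were whole in every library, and the part of this overlap in the difference was not tested.

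PSMB9 differed most of the 9. It had 29.3, 31.5 and 31.9 CPM in A427 (826 to 880 reads) and 3.54, 4.52 and 3.35 in HCC15 (86 to 129 reads), a log2 difference of -3.02 ± 0.15 (edgeR adjusted p = 4.82e-07). The lines were far apart in every arm, with log2 ratios of -3.05, -2.80 and -3.25 for control siRNA, siRNA 2 and siRNA 4. The other 2 interferon-inducible catalytic subunits, looked at after their values were seen, did not show a gap of this size: PSMB8 was at 32.9 to 45.8 TPM in A427 and 31.0 to 37.8 in HCC15, and PSMB10 at 23.8 to 28.7 and 17.2 to 18.5. PSMB6 is the constitutive subunit that PSMB9 replaces, and the PSMB9 to PSMB6 TPM ratio was 0.228 to 0.304 in A427 and 0.0151 to 0.0342 in HCC15. Its divergent neighbour TAP1 was 0.711 to 0.883 times PSMB9 in TPM in A427 and 3.99 to 5.33 times in HCC15. PSMB9 shares 12.1% of its 50-base words with PSMB8-AS1, and the sources used here do not say whether reads were counted by strand.

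TAPBP, the loading chaperone tapasin, had 311, 339 and 253 CPM in A427 and 105, 105 and 77.6 in HCC15. No HCC15 library reached the lowest A427 library (log2 -1.65 ± 0.09, edgeR adjusted p = 8.98e-07). NLRC5 was barely expressed, with 50, 38 and 69 reads in A427 and 154, 245 and 98 in HCC15. It was higher in HCC15 (log2 1.65 ± 0.33, edgeR adjusted p = 0.0016), but by very different amounts in the 3 arms, 1.77 with control siRNA, 2.57 with siRNA 2 and 0.61 with siRNA 4. Of the other members, B2M was likewise higher in HCC15, HLA-C, HLA-E, TAP1, TAPBP and PSMB9 were lower, and HLA-B was not called.

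**Figure D2:**
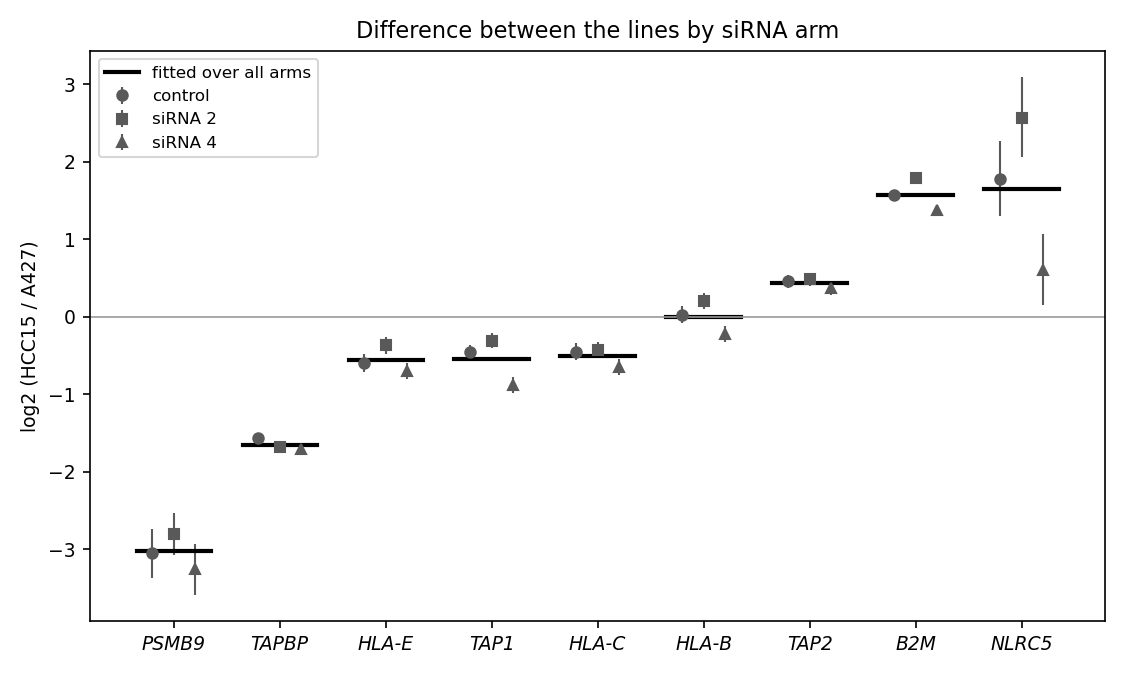
Log2 ratio of HCC15 to A427 for each gene, ordered by the fitted value (black bar), with 1 grey point per siRNA arm and bars showing 95% intervals for counting error only. PSMB9 lies near -3 and TAPBP near -1.65 in every arm, HLA-B changes sign between arms, and NLRC5 ranges from 0.61 to 2.57.

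Genes around the 9 also differed between the lines. The list counts below stand beside 37.2% of all tested genes higher in HCC15 and 39.3% lower. Of 8 other class I and class I-like genes tested, 2 were higher in HCC15 and 5 lower; 1 of the 5, HLA-L, had passed the filter on reads (10 in 2 or more libraries) through A427 only. PROCR, the endothelial protein C receptor with a class I-like fold, was 23.5-fold higher. HLA-H, a pseudogene, was 5.34-fold higher, which is uncertain because class I genes and pseudogenes share sequence. HLA-F, a nonclassical heavy chain, was 7.72-fold lower (log2 -2.95 ± 0.25, edgeR adjusted p = 9.02e-06), and the pseudogene HLA-L had 70 to 106 reads in A427 and 0 to 7 in HCC15. Of 23 peptide supply and loading genes, 6 were higher and 11 lower (median -0.17). The largest differences were in loading: TAPBPL, a tapasin-related peptide editor, was 11.2-fold lower, and CALR, calreticulin of the loading complex, 4.76-fold lower (log2 -2.25 ± 0.14, edgeR adjusted p = 1.71e-06). ERAP2, a peptide-trimming aminopeptidase, was 2.43-fold higher and LNPEP, a related aminopeptidase, 1.99-fold lower.

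Of 24 regulators of class I genes, 6 were higher in HCC15 and 13 lower (median -0.51), beside 37.2% and 39.3% of all genes. The largest differences were lower RFX5 (log2 -1.86 ± 0.11) and RFXANK (-1.38 ± 0.15), subunits of the RFX complex, lower STAT2 (-1.74 ± 0.10), a mediator of type I interferon signals, and lower IFNGR2 (-1.43 ± 0.13), a chain of the interferon-gamma receptor, with edgeR adjusted p of 1.01e-06, 3.87e-05, 1.22e-06 and 1.38e-05. Of 28 interferon-stimulated genes outside the class I pathway that were tested, 10 had passed the filter on reads through HCC15 only, so their difference was fixed by that filter and no median is given. Of the other 18, 8 were higher in HCC15 and 4 lower, beside 37.2% and 39.3% of all genes. Among the 8 higher, MX1 (log2 4.49), IFIT1 (3.34) and OAS1 (3.22), named after their values were seen, differed most. IFITM1, IFI44, XAF1 and GBP1 are among the 10 that passed the filter through HCC15 only. IFITM1, which restricts viral entry, had 7, 3 and 10 reads in A427 and 2152, 1497 and 1594 in HCC15. IFI44 had 3 to 9 reads in A427 and 461 to 982 in HCC15. XAF1 had 0 reads in A427 and 119 over the HCC15 libraries, at least 40.9-fold higher against a floor of 3 reads over the A427 libraries. GBP1, a guanylate-binding protein, had 2, 0 and 0 reads in A427 and 50 to 135 in HCC15. The 4 lower, named after their values were seen, were IFI35 (11.0-fold lower), the RNA sensor IFIH1 (10.1-fold), UBE2L6 (2.46-fold) and OAS3 (1.33-fold), the last not past the threshold without the A427 control library (edgeR adjusted p = 0.0657) or the HCC15 control library (0.0739).

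**Figure D3:**
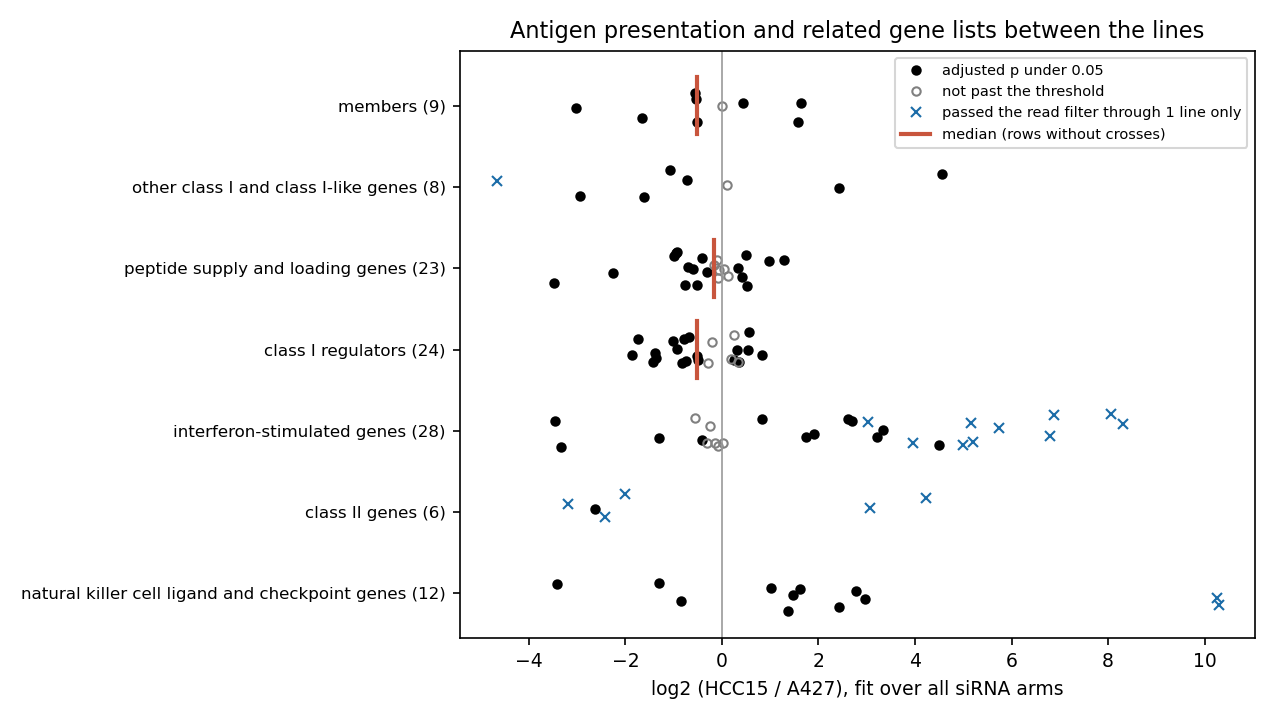
Fitted log2 ratio of HCC15 to A427 (horizontal axis) for the 9 members and 6 gene lists (rows, number tested in parentheses), 1 point per gene, filled where the adjusted p was under 0.05, and a cross where a gene passed the filter on reads through 1 line only; a red bar marks the median in rows without crosses. The 9 members have a median of -0.51 and points on both sides of 0, and 10 of the 28 interferon-stimulated genes are crosses, all higher in HCC15.

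Responses to the LGR6 siRNAs were fitted over both lines, although silencing was not measurable in A427. With siRNA 2, 0 of 9 passed the test against the control siRNA, where 7.62% of all tested genes did, and with siRNA 4, 0 of 9 passed, where 12.5% did. Fitted log2 differences ran from -0.13 to 0.34 with siRNA 2 and from -0.37 to 0.43 with siRNA 4. Those of NLRC5 had an SE of 0.38 and 0.40, too wide to show that its response was small. Both comparisons share the 2 control libraries. At an unadjusted p under 0.05, 0 of 9 genes were found with siRNA 2 and 3 of 9 with siRNA 4 (HLA-B, HLA-E and TAPBP).

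HLA-B and HLA-C were above the control library of their line in 4 of 4 LGR6 siRNA libraries. In A427, HLA-B reached 113% of control with siRNA 2 and 147% with siRNA 4, and in HCC15 128% and 123%. All 4 log2 ratios had 95% counting intervals above 0, which take no account of variation between cultures. HLA-C was at 114% and 127% in A427 and at 116% and 112% in HCC15. The fitted difference of HLA-B was 0.27 ± 0.14 with siRNA 2 (edgeR adjusted p = 0.281) and 0.43 ± 0.14 with siRNA 4 (edgeR adjusted p = 0.0846), and that of HLA-C 0.20 ± 0.13 (0.365) and 0.26 ± 0.13 (0.224). Over both siRNAs and both lines, 0 of 9 genes and 0% of all genes passed, and HLA-B was at 0.36 ± 0.16 (edgeR adjusted p = 0.507). With the siRNA number as a block, 8.96% of all genes and 0 of 9 members passed, and HLA-B had an edgeR adjusted p of 0.119. The unadjusted p was under 0.05 for 0 of the 9 genes in the comparison without the block, and DESeq2 passed 0 of the 9 there.

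HLA-E and B2M were above control in 3 of 4 libraries, the exception being A427 with siRNA 2 (98.7% for HLA-E and 94.3% for B2M). HLA-E was at 130% in A427 with siRNA 4 and at 115% and 121% in HCC15, and B2M at 127%, 110% and 111%. Their fitted differences with siRNA 4 were 0.33 ± 0.14 for HLA-E (edgeR adjusted p = 0.151) and 0.26 ± 0.13 for B2M (0.232). TAP1 was below control in 4 of 4 libraries, at 86.8% and 95.3% in A427 and 96.0% and 71.0% in HCC15, and 2 of these 4 counting intervals were below 0 on the log2 scale. PSMB9 was at 94.8% to 128% of control and TAP2 at 90.0% to 100%. For each siRNA, NLRC5 was on opposite sides of control in the lines: A427 had 84.6% with siRNA 2 and 146% with siRNA 4, HCC15 147% and 65.2%. The test of a difference between the lines in the response pooled the 2 LGR6 siRNAs. Line differences of opposite sign for the siRNAs, as for NLRC5, cancel in it. This test passed 0 of 9 genes and 0% of all genes, with estimates for the 9 from -0.13 to 0.05 on the log2 scale. At an unadjusted p under 0.05, 0 of the 9 were found.

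**Figure D4:**
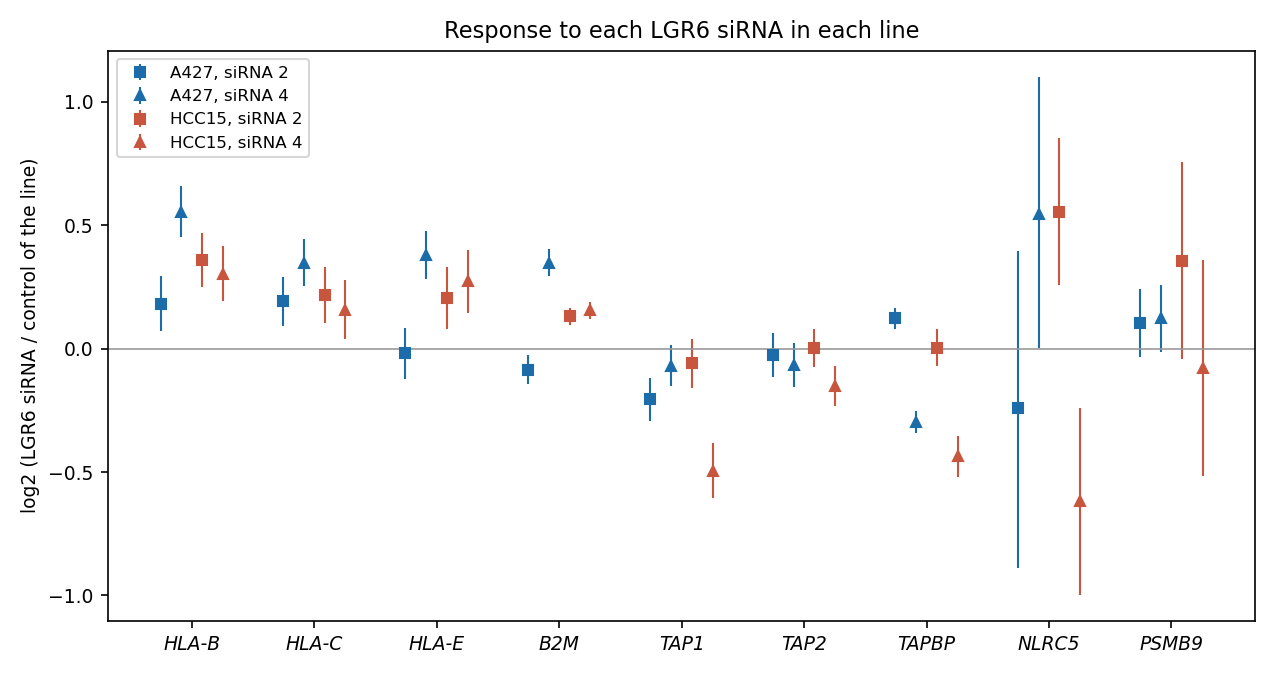
Log2 ratio of each LGR6 siRNA library to the control library of its line (vertical axis) for the 9 genes, with A427 in blue, HCC15 in red, siRNA 2 as squares and siRNA 4 as triangles, and bars showing 95% intervals for counting error only. All 4 points of HLA-B and of HLA-C lie above 0, both siRNA 4 points of TAPBP lie below 0, and the NLRC5 points lie on both sides.

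Between the LGR6 siRNAs, TAPBP was the only gene of the 9 called. NLRC5 had a larger fitted difference of siRNA 4 from siRNA 2 (log2 -0.46 ± 0.39) and was not called. In A427, TAPBP reached 109% of control with siRNA 2 and 81.3% with siRNA 4, and in HCC15 100% and 73.9%. Against siRNA 2, siRNA 4 lowered it by a log2 difference of -0.43 ± 0.11 (edgeR adjusted p = 0.035), the single member called where 16.5% of all genes were called and 8.84% were called lower. The call was lost whichever 1 of the 6 libraries was left out (adjusted p from 0.0794 to 0.199, log2 from -0.47 to -0.41) or on log2(TPM + 1) (limma adjusted p = 0.0661). Against control, siRNA 4 gave -0.37 ± 0.11 (edgeR adjusted p = 0.0693). This comparison of the siRNAs does not use the control libraries in its fold.

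A second loading complex gene differed more between the siRNAs than TAPBP. PDIA3, the disulfide isomerase ERp57 that pairs with tapasin, had 564, 626 and 205 CPM in the A427 control, siRNA 2 and siRNA 4 libraries and 419, 633 and 143 in HCC15. With siRNA 4 it was at 36.3% of control in A427 and 34.2% in HCC15, while with siRNA 2 it was at 111% and 151%. It fell with siRNA 4 against control (2.83-fold, log2 SE 0.15, edgeR adjusted p = 0.00142) and against siRNA 2 (-1.88 ± 0.15, edgeR adjusted p = 0.000539), and both calls held whichever 1 of the 6 libraries was left out (highest adjusted p 0.0374 and 0.0184). On log2(TPM + 0.1) they did not (limma adjusted p = 0.0780 and 0.0569). CALR, which was called with neither siRNA, was at 96.7% to 100% of its A427 control, and its HCC15 level was 163% of control with siRNA 2 and 126% with siRNA 4.

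**Figure D5:**
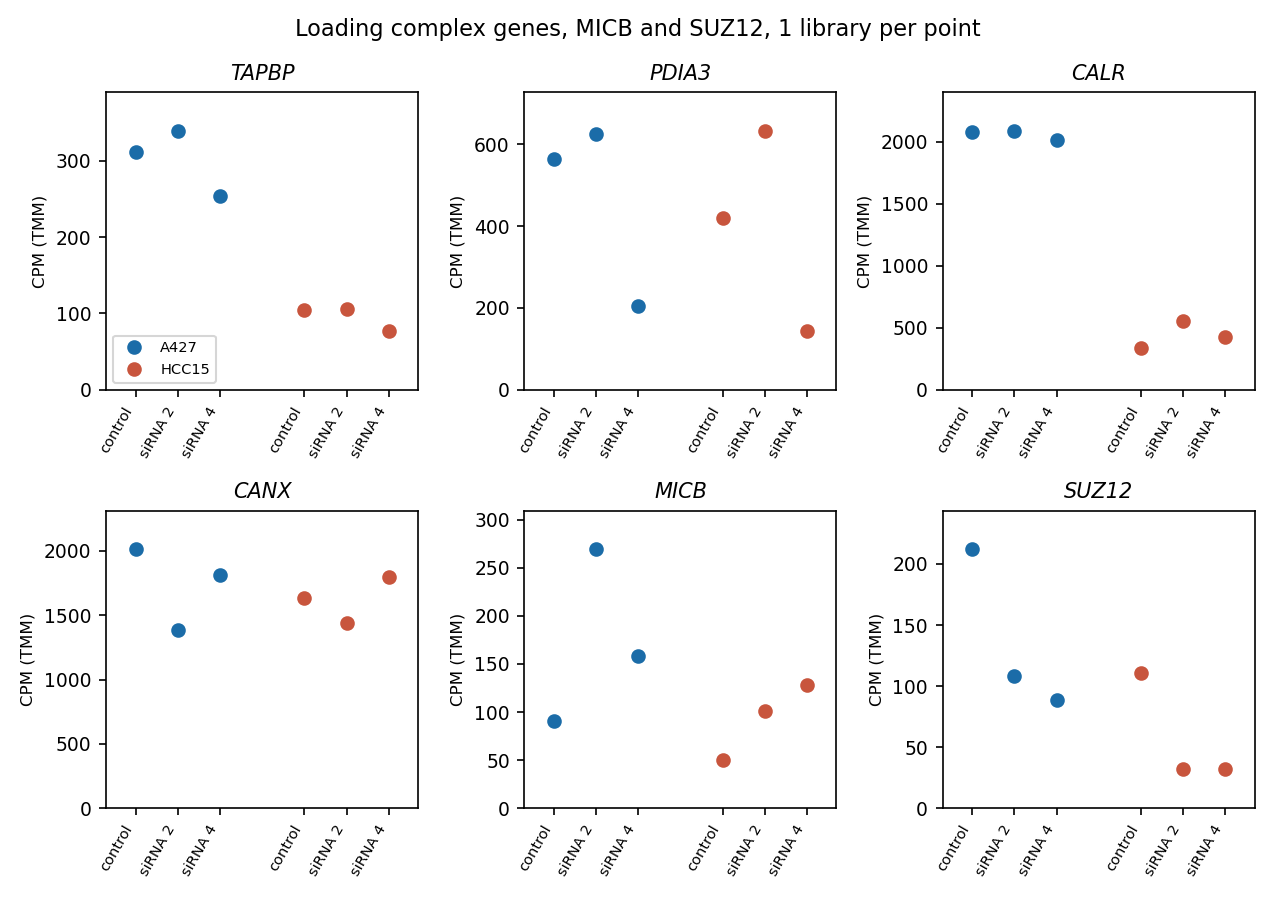
CPM on the TMM scale (vertical axes start at 0) of TAPBP and 3 other loading complex genes, and of MICB and SUZ12, 1 point per library, with A427 in blue and HCC15 in red. PDIA3 is lowest with siRNA 4 in both lines (205 and 143 CPM), MICB is lowest and SUZ12 highest in the control library of each line.

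Of all tested genes, 7.62% were called with siRNA 2 and 12.5% with siRNA 4, beside which the list counts below stand. Of the 23 supply and loading genes, siRNA 2 gave 1 higher and 0 lower, and siRNA 4 gave 2 higher and 1 lower. Their medians were 0.04 and 0.01. The 2 higher with siRNA 4 were PSME4, a proteasome activator (log2 0.71 ± 0.16), and PSMB6 (0.65 ± 0.15), with edgeR adjusted p of 0.0242 and 0.0259. Both calls were lost without the A427 control (adjusted p = 0.174 and 0.197), the HCC15 control (0.264 and 0.244) or the HCC15 siRNA 4 library (0.220 and 0.231). Of 24 regulators, 2 were higher and 4 lower with siRNA 2, where 7.62% of all genes were called. With siRNA 4, 1 regulator was higher and 3 were lower, where 12.5% of all genes were called. SUZ12, part of a Polycomb complex that can silence class I pathway genes, had 212, 109 and 88.7 CPM in A427 and 111, 32.6 and 32.6 in HCC15. It fell with siRNA 2 (log2 -1.36 ± 0.18, edgeR adjusted p = 0.00723) and with siRNA 4 (-1.52 ± 0.19, 0.00241). Without the HCC15 control library these adjusted p were 0.125 and 0.0523, and without the HCC15 siRNA 4 library the latter was 0.0573. IFNGR2 rose with siRNA 2, to 203% of control in A427 and 193% in HCC15 (log2 0.99 ± 0.16, edgeR adjusted p = 0.0103), and was at 94.7% and 64.3% with siRNA 4. Its call was lost without the A427 control (adjusted p = 0.140), the HCC15 control (0.127) or the HCC15 siRNA 2 library (0.0717), while siRNA 4 against siRNA 2 (-1.33 ± 0.16, edgeR adjusted p = 0.00191) held whichever library was left out. Of the 28 interferon-stimulated genes, 0 were higher and 1 lower with siRNA 2, where 7.62% of all genes were called. With siRNA 4, 4 were higher and 1 lower, where 12.5% were called. The median of this list was 0.03 for each siRNA. Of the 8 other class I and class I-like genes, 1 was lower with siRNA 2 and 1 higher with siRNA 4.

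Within lines, the heavy chain genes and B2M varied alike over the 6 libraries once each line's mean was subtracted. TAP2 varied alike with TAP1 and with TAPBP, whereas TAP1 and TAPBP were less alike. Pearson correlations of log2 CPM were 0.975 for HLA-B and HLA-C, 0.969 for HLA-E and B2M and 0.930 for HLA-B and HLA-E. The lowest among these genes was 0.741 for HLA-C and B2M. Correlations were 0.889 for TAP1 and TAP2, 0.891 for TAP2 and TAPBP and 0.595 for TAP1 and TAPBP, and HLA-E and TAPBP gave -0.812. These values describe 6 libraries that share lines, siRNAs and scaling. Among 9926 genes averaging 10 CPM or more, YTHDC1 (0.995) and IRS2 (0.995) were among the 3 most like HLA-B in this measure. IRS2, an adaptor of insulin receptor signalling, had 20.7, 25.5 and 35.8 CPM in A427 and 16.5, 24.1 and 23.9 in HCC15. Most like B2M were FLJ22184 (0.995), HDAC7 (0.994) and ARHGAP10 (0.992), and most like TAP1 were TRAPPC10 (0.998), MTL5 (0.992) and FAM63A (0.990).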

How the data were processed

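RNA from 6 cultures (2 lines, 3 siRNAs) was column-purified, and mRNA libraries were made with a KAPA HyperPrep kit, per the labels' protocols. The submitters' processing notes name FastQC 0.11.1, STAR 2.5.3a, RSEM 1.3.3 and hg19. The gene annotation was not given in the sources used here. Deposited by the authors were expected counts for each gene, estimates that can be fractional (per library, 5.75% to 6.29% of them were). TPM, deposited by the authors, scale reads by transcript length and library. HLA alleles of the lines were not analysed here.

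Expected counts were rounded. Genes reaching 10 reads in 2 or more libraries were tested with edgeR 4.0.16 (TMM, quasi-likelihood, R 4.3.3), with Benjamini-Hochberg adjustment over all 14481 and a threshold of 0.05. Lines and single siRNAs were compared in a fit of line plus siRNA (2 residual degrees of freedom, all 6 libraries), silencing across lines in a fit of line plus arm (3), and the difference between lines with an interaction term. The fits were tested on simulated data. Alternatives were other size factors, no filter, DESeq2 1.42.0, limma 3.58.1 on log2(TPM + 1) and log2(TPM + 0.1), each library left out, and the siRNA number as a block. A number stands for 1 reagent used in both lines, so numbers pair the samples; across genes, the log2 difference of siRNA 4 from siRNA 2 had a correlation of 0.621 between A427 and HCC15. Intervals on ratios of 2 libraries are exact, at 95%, for counting error only.

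The 9 genes and all lists (other class I genes, supply and loading, regulators, interferon-stimulated genes, class II, natural killer ligands and checkpoints, cell type markers) were chosen with earlier results of these data known. In each list, up to 4 genes past the threshold with the largest change were eligible to be named, and the 3 genes most like HLA-B, B2M and TAP1 by correlation; exceptions are stated, and some results are not reported here. Shared 50-base words were counted in the longest transcript against all other genes of the reference transcripts. Promoters are the RefSeq windows on GRCh38.p14, matched by symbol.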

Additional observations from a re-analysis of the deposited data

Results flagged for a closer look

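HLA-F, a nonclassical heavy chain, was above control with both LGR6 siRNAs in A427 (102% and 166%) and below it with both in HCC15 (71.1% and 73.2%, from 25 to 35 reads per library). The mean log2 ratio in HCC15 minus that in A427 was -0.849. IFI35 was below control in both A427 libraries (84.2% and 86.6%) and above it in both HCC15 libraries (147% and 117%), a difference of 0.619 in mean log2 ratio. The interaction term of line by arm passed neither gene (edgeR, Benjamini-Hochberg adjusted p = 1 for each), and each line has 1 control library that both ratios share.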

How the results depend on the processing

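Between the lines, 408 of 416 values of named genes under the alternatives kept their direction and side of the threshold. HLA-B, which was not called, turned sign on log2(TPM + 1) (-0.09107) and log2(TPM + 0.1) (-0.09206) and ranged from -0.1016 to 0.1458 with 1 library left out; it was -0.0928 without the HCC15 siRNA 2 library. TAP2 turned to -0.147 and -0.1504 on the TPM scales. Calls for the siRNAs were fewer on TPM, and with 1 library left out they were fewer or more. Genes called with siRNA 2 numbered 1104, then 231 on log2(TPM + 1), 4 on log2(TPM + 0.1) and 4 to 1438 with 1 library left out. With siRNA 4 they numbered 1814, then 612, 1 and 97 to 2098, and DESeq2 called 1 member, TAPBP (adjusted p = 0.0364). For siRNA 4 against siRNA 2 they numbered 2395, then 1075, 4 and 439 to 2220, with 0 members called in the TPM fits and 0 with any 1 library left out. Silencing across both lines gave 0 genes by edgeR (1512 at an unadjusted p under 0.05), 387 by DESeq2, 1 and 1 on the TPM scales and 1298 when the siRNA number was a block, which called no member. Without the block, silencing across both lines gave edgeR adjusted p of 0.227 for MICB and 0.152 for SUZ12. DESeq2 gave adjusted p of 0.00158 and 4.58e-07 for these genes. Of HLA-B, HLA-C, MICB and SUZ12, the block changed the calls of MICB (edgeR adjusted p = 0.0122) and SUZ12 (0.00362). The siRNA 2 count was 127 without the A427 control, 715 and 224 without the A427 and HCC15 siRNA 2 libraries, and 4 without the HCC15 control. The siRNA 4 count was 375 and 97 without the A427 and HCC15 controls and 244 without the HCC15 siRNA 4 library. For siRNA 4 against siRNA 2 it was 1327 and 1287 without those controls, and 713 and 439 without the HCC15 siRNA 2 and siRNA 4 libraries. A fit that leaves out a library rests that siRNA on 1 line. The causes were not tested. The difference between lines without a control library could not be estimated. NLRC5, at 38 to 245 reads, and LGR6 in A427 are limited by depth.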

Other observations

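Of the ligands of natural killer cell receptors and checkpoint genes, 12 were tested, of which RAET1G and RAET1E had passed the filter on reads through HCC15 only. Of the other 10, 7 were higher in HCC15 and 3 lower, where 37.2% and 39.3% of all genes were. RAET1G, a ligand of the activating receptor NKG2D, had 0 reads in A427 and 467 over the HCC15 libraries, at least 161-fold higher against a floor of 3 reads over the A427 libraries. RAET1E, another such ligand, had 1, 0 and 0 reads in A427 and 383 to 646 in HCC15, and ULBP1 was 7.82-fold higher (edgeR adjusted p = 1.53e-06). CD47, which signals to phagocytes not to engulf, was 10.7-fold lower in HCC15, with 2678 to 3857 reads in A427 and 210 to 364 in HCC15 (edgeR adjusted p = 6.92e-08).

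MICB, a class I-like stress ligand of NKG2D, was called higher than control with each LGR6 siRNA. It had 91.1, 269 and 158 CPM in the A427 control, siRNA 2 and siRNA 4 libraries and 50.5, 101 and 128 in HCC15, so each LGR6 siRNA library was above the control of its line, at 174% to 296%. The log2 differences were 1.31 ± 0.23 with siRNA 2 (edgeR adjusted p = 0.014) and 1.09 ± 0.23 with siRNA 4 (0.0183). Of 5 other settings with all libraries, 3 kept both calls. The fits on log2(TPM + 1) and log2(TPM + 0.1) kept neither (limma adjusted p from 0.0593 to 0.131). Both were lost without either control library (adjusted p from 0.137 to 0.203), the siRNA 2 call without the A427 siRNA 2 library (0.0562) and the siRNA 4 call without the HCC15 siRNA 4 library (0.174). Of the 12 genes of this list, 1 was higher and 0 lower with siRNA 2, where 7.62% of all genes were called. With siRNA 4, 2 were higher and 0 lower, where 12.5% of all genes were called. Beside MICB, the other was NCR3LG1 (log2 1.13 ± 0.30, edgeR adjusted p = 0.0423). The NCR3LG1 call was lost without the A427 control (log2 1.23), the HCC15 control (1.06) or the HCC15 siRNA 4 library (0.49).

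Class II genes were low in both lines. Of 12 listed, 6 passed the filter on reads, 2 of them through HCC15 only and 3 through A427 only, so the number that differed between the lines is not a result. HLA-DOB had 1, 2 and 2 reads in A427 and 47, 33 and 17 in HCC15, and HLA-DRB1 had 2, 3 and 3 reads in A427 and 16, 26 and 26 in HCC15. HLA-DMA, a class II peptide editor, had 45, 49 and 90 reads in A427 and 10, 8 and 10 in HCC15. It was 6.21-fold lower in HCC15 (edgeR adjusted p = 7.62e-05), where its reads did not exceed the filter's limit of 10. Against control, 0 of the 6 passed the edgeR test with either siRNA. Of all genes, 7.62% passed with siRNA 2 and 12.5% with siRNA 4. At an unadjusted p under 0.05, 0 of the 6 were found with siRNA 2 and 3 with siRNA 4.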
